A study of Mus musculus with 9 samples.

Results

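Microglia, the resident macrophages of the brain, were examined here through 34 genes that the microglial literature uses to name these cells, to follow their phagocytic and complement functions, or to mark their activation. The genes were taken as a fixed list of symbols, with no measured value in the rule, but the list was chosen with earlier results of these data known. All 34 were found among the 54446 annotated genes counted. Of the 34, 33 passed the filter on low counts, as 17355 genes did in all. The exception was Cst7. The RNA came from brain of adult male mice aged 3 to 4 months, and the part of the brain taken is not stated. Poly(A)-selected, strand-specific libraries were sequenced from 3 wild-type samples of the B6N background, 3 Tfap2a+/- samples and 3 samples labelled Tfap2b+/-. The mutant mice were heterozygous for a knockout of Tfap2a or Tfap2b, which encode transcription factors of the AP-2 family. Neither the alleles nor the background of the mutants is given in the sources used here. The labels do not say whether the 3 samples of a group are different animals. The p-values therefore cover only the variation among the samples at hand, part of which may be technical.

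As background, microglia arise from early macrophage precursors and depend on signalling through the CSF1 receptor. PU.1 and IRF8 are needed for their development, and SALL1 for their adult identity. They read their surroundings through receptors such as CX3CR1, P2Y12 and TREM2, secrete most of the C1q found in the brain, and take up dying cells and synapses into lysosomes. C1q starts the classical complement pathway, in which tagged material is bound by complement receptor 3, whose alpha chain is CD11b.

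Several properties of the libraries bear on what follows. Gene counts totalled 21946800 to 29214975 per library. The targeted genes did not check the labels: Tfap2b measured 0.715 to 14.8 CPM (gene counts scaled to the size of the library) in wild type. In the libraries labelled Tfap2b+/- it measured 5.81 to 32.9 CPM, not lower than wild type but overlapping it. A loss of 1 allele can be neither read from these counts nor excluded by them. Tfap2a measured at most 1.59 CPM in any library. Reads on no annotated exon of the strand counted made up 11.1% to 11.8% of fragments in the libraries labelled Tfap2b+/- and 7.30% to 8.96% in the others. Library 1 labelled Tfap2b+/- stood apart: it was the lowest of 9 for 22.6% of all genes tested and the highest for 21.7%. Markers of choroid plexus summed to 3140 CPM in wild-type library 2 and 872 CPM in Tfap2a+/- library 1, against 21.3 to 297 CPM in the other 7. Myelin markers summed to 2230 CPM in Tfap2a+/- library 3 and 2660 CPM in library 3 labelled Tfap2b+/-, against 4360 to 7250 CPM elsewhere. The part of these differences in the microglial values was not tested.

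All the defining surface markers of microglia were measured in every library, so the tissue held microglial RNA throughout. P2ry12 measured at least 26.8 CPM, Tmem119 at least 12.4 CPM and Cx3cr1 at least 36.6 CPM. Levels of different genes are compared here only per length, as CPM per kilobase of the principal transcript, averaged over 9 libraries. On that scale 4 of the 6 lysosomal genes led. Cst3, which encodes the secreted protease inhibitor cystatin C and is also abundant in astrocytes, stood at 577. Lgmn, Ctsd and Ctss, which encode lysosomal proteases, followed at 52.3, 50.4 and 35.6. The C1q chains came next, with C1qa at 27.7, C1qb at 26.7 and C1qc at 22.1, above Csf1r at 20.9 and P2ry12 at 17.7. With the length of all annotated exons C1qc stood at 13.8, below Csf1r at 17.0 and P2ry12 at 16.3. The transcription factors Irf8 and Spi1, which encodes PU.1, lay near the bottom at 1.62 and 1.23. Clec7a and Cst7, which rise in plaque-associated and other disease-associated microglia, were last at 0.498 and 0.065.

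**Figure D1:**
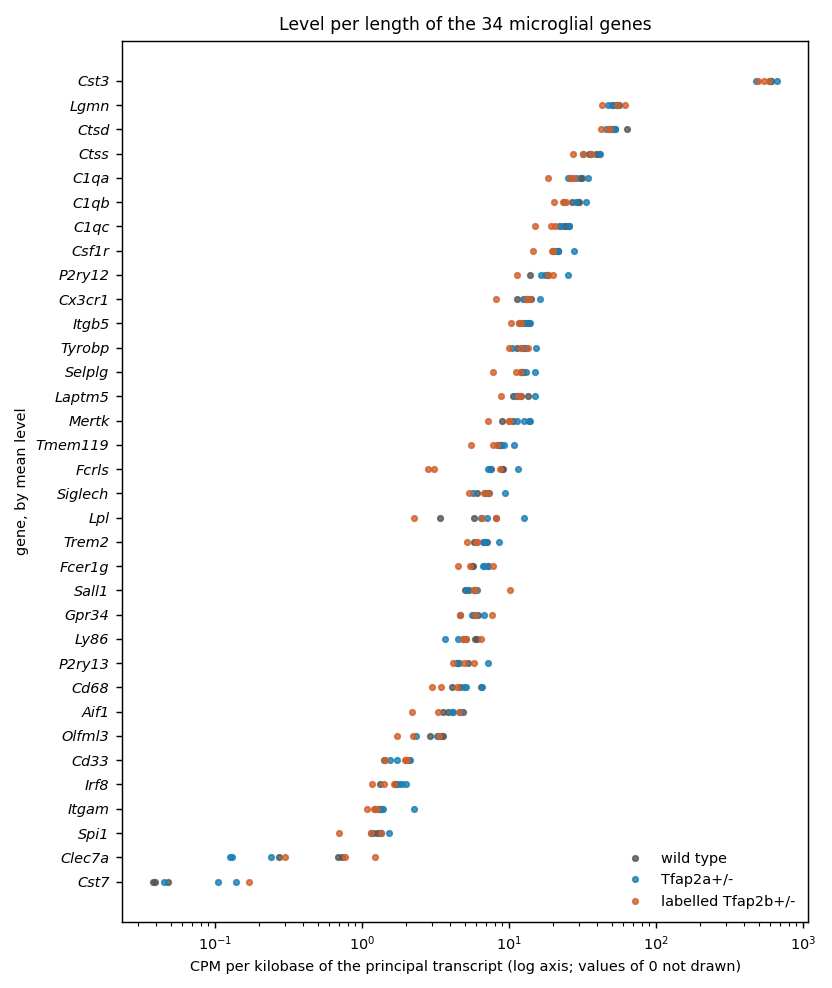
Level of each of the 34 genes per length in each library (x axis, CPM per kilobase of the principal transcript, log axis; y axis, genes ordered by mean level; one point per library, coloured by group). Cst3 lies highest at a mean of 577 and Cst7 lowest at 0.065, and for most genes the spread within a gene is small beside the distance between the top and bottom of the order.

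No microglial gene passed the test in any comparison. With edgeR's quasi-likelihood test and Benjamini-Hochberg adjustment over all 17355 genes, 0 of 33 members had an adjusted p under 0.05 in Tfap2a+/- against wild type, where 0% of all genes were called. The count was also 0 of 33 in the libraries labelled Tfap2b+/- against wild type and 0 of 33 between the mutants, each beside 0% of all genes. The smallest adjusted p among members by edgeR was 1.0, 0.37 and 0.37, and over all genes 0.11, 0.19 and 0.12. At an unadjusted p under 0.05, edgeR counted 2 members (background 3.84% of all genes), 3 members (10.6%) and 11 members (11.5%). The first and last of these counts include Clec7a, which did not pass the low-count filter when only the 2 groups compared were fitted. DESeq2 called 0 members in all 3 comparisons, among 30, 175 and 228 genes in all. In bulk tissue, fewer microglia and less RNA per microglial cell cannot be told apart.

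Many of the genes were highest or lowest in the same library. A library's deviation for a gene was its log2 CPM less the average of that gene in all 9 libraries. Tfap2a+/- library 2 was the highest of 9 for 21 of the 33 tested members, against 8.27% of all genes, and its median deviation was 0.27. Library 1 labelled Tfap2b+/- was the lowest of 9 for 25 of the 33, against 22.6% of all genes, and its median deviation was -0.40. The other 7 libraries had median deviations from -0.05 to 0.10. By role, the 9 surface genes lay farthest apart in those 2 libraries, with medians of 0.42 and -0.60. Their summed level was 393 CPM in Tfap2a+/- library 2 and 197 CPM in library 1 labelled Tfap2b+/-, and 271 to 313 CPM in the rest.

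**Figure D2:**
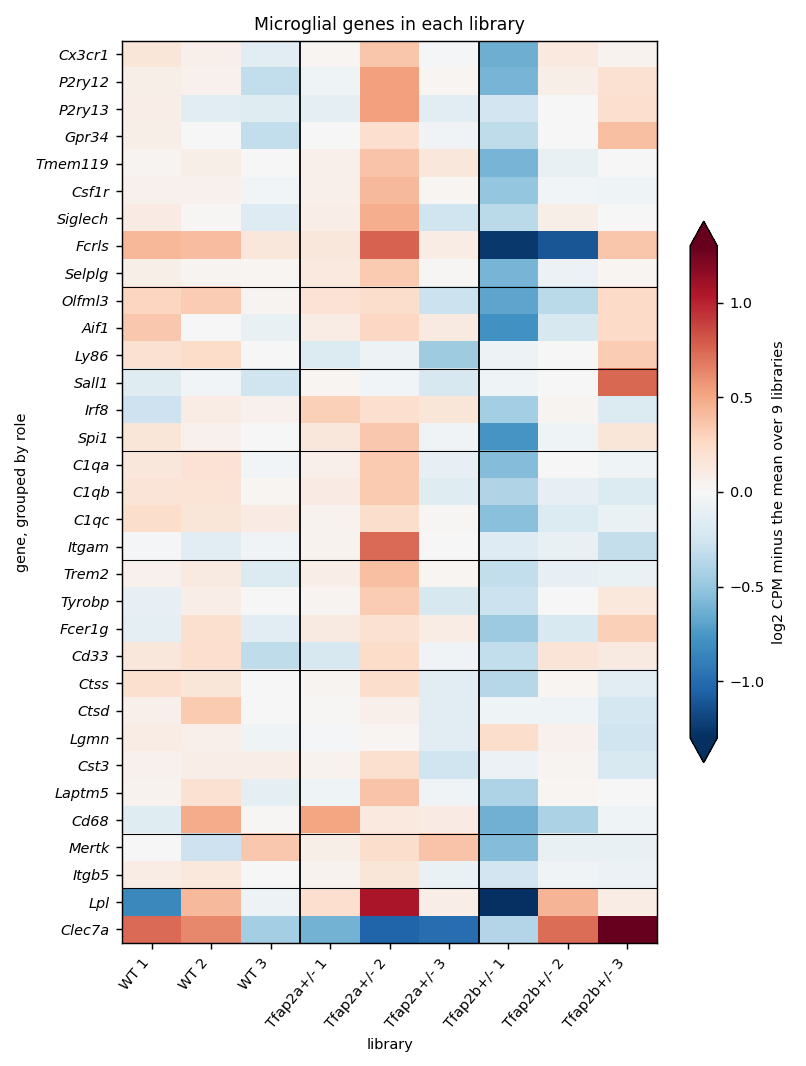
Deviation of each tested gene in each library (columns, 9 libraries in 3 groups separated by vertical lines; rows, 33 genes grouped by role; colour, log2 CPM less the 9-library average of the gene, clipped at the ends of the scale). Tfap2a+/- library 2 is the highest for 21 genes and library 1 labelled Tfap2b+/- the lowest for 25.

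Other microglial genes had their highest and lowest medians in the same 2 libraries. A list of 25 further microglial genes, such as P2ry6 and Cd53, had median deviations of 0.21 in Tfap2a+/- library 2 and -0.40 in library 1 labelled Tfap2b+/-. Border-associated macrophages, which share many genes with microglia, had 8 of 8 markers tested. Their sum ranged over 30.2 to 36.6 CPM in wild type, 31.9 to 46.3 CPM in Tfap2a+/- and 28.9 to 43.9 CPM in those labelled Tfap2b+/-. It was highest in Tfap2a+/- library 3 and lowest in library 1 labelled Tfap2b+/-. Of 9 monocyte and granulocyte markers, 5 passed the filter, and the sum was 1.54 to 12.1, 1.34 to 3.12 and 1.35 to 4.69 CPM in the same order. Plac8 and Ly6c2 were at 0 in 4 and 2 libraries. Of 9 lymphocyte markers 1 passed, Trbc2, and Cd3d was at 0 in all 9 libraries. The lymphocyte sums were 2.03 to 10.7, 4.21 to 5.44 and 2.29 to 5.73 CPM, highest in wild-type library 1 as were those of granulocytes. Neuronal markers summed lowest in library 1 labelled Tfap2b+/-, at 5590 CPM against 6780 to 9020 CPM elsewhere, and astrocyte markers also summed lowest there, at 4960 CPM, although their median deviation there was 0.26. The part of these differences in the microglial values was not tested.

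**Figure D3:**
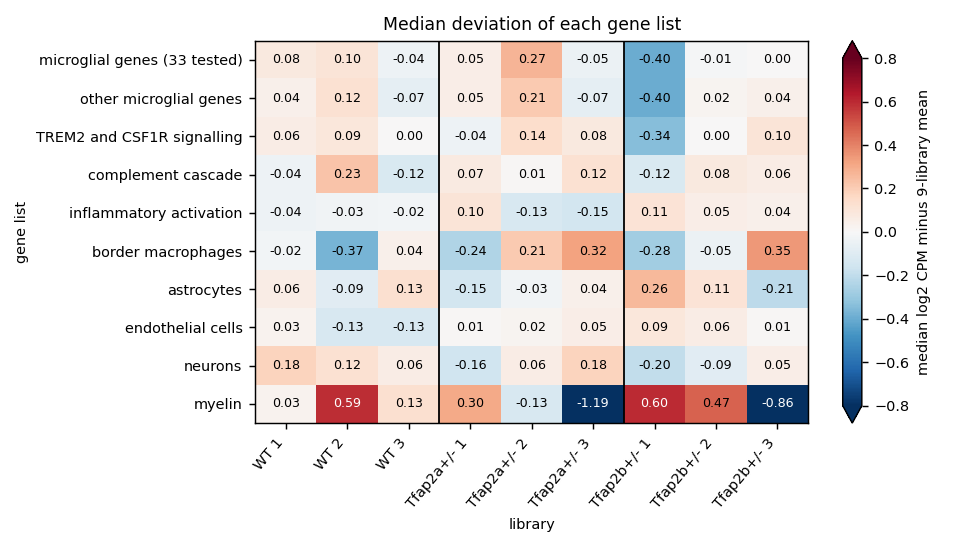
Median deviation of each gene list in each library (columns, 9 libraries; rows, lists; colour and printed value, median over the list's tested genes of log2 CPM minus the 9-library mean, colours clipped at the ends of the scale). The microglial genes and the further microglial list both read -0.40 in library 1 labelled Tfap2b+/- and 0.27 and 0.21 in Tfap2a+/- library 2, and the myelin list has its lowest values, -1.19 and -0.86, in the third library of each mutant.

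Csf1r, the receptor on which microglial survival depends, was the surface gene of highest level per length. It measured 101, 101 and 94.3 CPM in wild type, then 102, 130 and 99.0 CPM in Tfap2a+/- and 68.4, 94.4 and 93.1 CPM in those labelled Tfap2b+/-. The outlying values lay in the 2 libraries already named, and each mutant group overlapped wild type. The log2 fold was 0.16 (standard error 0.14) in Tfap2a+/- and -0.21 (0.14) in the libraries labelled Tfap2b+/-, with adjusted p of 1.0 and 0.59 by edgeR. It was 0.02 without Tfap2a+/- library 2 and -0.07 without library 1 labelled Tfap2b+/-. P2ry12, the ADP receptor that steers microglial processes toward injury, measured 43.1, 42.4 and 32.5 CPM in wild type, then 38.9, 58.8 and 41.3 CPM in Tfap2a+/- and 26.8, 43.0 and 46.6 CPM in the libraries labelled Tfap2b+/-. All 3 groups overlapped. Its log2 folds were 0.24 and -0.02, with standard errors of 0.23 in both comparisons, and the first was 0.03 without Tfap2a+/- library 2. Tmem119, a membrane protein that separates microglia from blood-derived macrophages, and Selplg, a ligand for selectins, were lower in all 3 libraries labelled Tfap2b+/- than in any wild-type library, though only just in library 3, with log2 folds of -0.26 (0.15) and -0.24 (0.16). Their adjusted p were 0.55 and 0.58 by edgeR, and their folds were -0.09 and -0.07 without library 1 of that group. Across the 9 surface genes, all 9 folds lay above 0 in Tfap2a+/- (median 0.14, from 0.04 to 0.24), where 48.2% of all genes did. Without Tfap2a+/- library 2, 5 of 9 lay above 0, and Fcrls, Siglech, P2ry13 and Cx3cr1 lay below at -0.21, -0.07, -0.06 and -0.03. Without wild-type library 3, 8 of 9 lay above 0. In the libraries labelled Tfap2b+/-, 7 of 9 lay below 0 (median -0.15), where 50.3% of all genes did, the other 2 being P2ry13 and Gpr34. Without library 1 of that group, 4 of 9 lay below 0, and without library 3 all 9.

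Fcrls, a microglial Fc receptor-like gene of rodents, departed from the other surface genes. Its values in every library are given because they stood out after they were seen. It measured 20.6, 20.3 and 17.1 CPM in wild type, then 17.0, 26.1 and 16.4 CPM in Tfap2a+/- and 6.42, 7.08 and 19.7 CPM in the libraries labelled Tfap2b+/-. Libraries 1 and 2 labelled Tfap2b+/- were the lowest of 9, while library 3 lay among the wild-type values. The deviation of Fcrls minus the median deviation of the other 8 surface genes was -0.70 and -1.11 in libraries 1 and 2, and between 0.09 and 0.37 in the other 7. Library 2 had a median deviation of 0.00 for those 8 genes, so its low Fcrls came without a low level of the others. The log2 fold of Fcrls was -0.81 (95% interval -1.71 to 0.10) with an adjusted p of 0.50 by edgeR, and -1.52 with an adjusted p of 0.13 without library 3. The same 2 libraries held the highest levels of Tcf7l2, at 148 and 91.8 CPM against at most 26.2 CPM elsewhere, a gene known for its expression in thalamus, and whether this bears on Fcrls was not tested. The gene Fcrls lies at chr3:87250758-87263738 on the minus strand of GRCm38.

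Among 3 further core genes, Ly86, which encodes the MD-1 partner of the receptor RP105, had the smallest unadjusted p. It measured 6.67, 6.89 and 5.83 CPM in wild type, then 5.13, 5.52 and 4.19 CPM in Tfap2a+/- and 5.54, 5.83 and 7.35 CPM in those labelled Tfap2b+/-. The 3 Tfap2a+/- libraries lay below all wild-type libraries. Its log2 fold was -0.38 (standard error 0.17, unadjusted p = 0.049, adjusted p = 1.0 by edgeR) in Tfap2a+/-, against -0.05 in the libraries labelled Tfap2b+/-. Aif1, which encodes the actin-binding protein IBA1 used to stain microglia, measured 4.27, 3.35 and 3.13 CPM in wild type, then 3.59, 4.05 and 3.64 CPM in Tfap2a+/- and 1.91, 2.90 and 4.00 CPM in the libraries labelled Tfap2b+/-. Libraries 1 and 2 of the last group were the lowest, but the groups overlapped. Olfml3, a secreted protein enriched in microglia, had log2 folds of -0.16 (0.23) and -0.44 (0.24), the second of them -0.24 without library 1 labelled Tfap2b+/- and -0.74 without library 3.

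Of the transcription factors, Sall1 was set apart by 1 library. It measured 28.1, 30.8 and 26.3 CPM in wild type, then 32.1, 30.7 and 27.2 CPM in Tfap2a+/- and 30.3, 31.2 and 53.2 CPM in the libraries labelled Tfap2b+/-. Library 3 labelled Tfap2b+/- held the highest value, and the other 8 libraries lay between 26.3 and 32.1 CPM. The log2 fold against wild type was 0.43 (standard error 0.20, adjusted p = 0.49 by edgeR), and 0.11 without library 3. Irf8 measured 3.76, 4.89 and 4.75 CPM in wild type, then 5.68, 5.30 and 5.11 CPM in Tfap2a+/- and 3.35, 4.72 and 4.04 CPM in the libraries labelled Tfap2b+/-. All 3 Tfap2a+/- libraries were above all the others. Its log2 fold was 0.26 (0.18, unadjusted p = 0.17, adjusted p = 1.0 by edgeR) against wild type and 0.41 (0.18, unadjusted p = 0.046, adjusted p = 0.43) against the libraries labelled Tfap2b+/-. Spi1 was lowest in library 1 labelled Tfap2b+/-, at 1.41 CPM, and highest in Tfap2a+/- library 2, at 3.12 CPM, the same 2 libraries that bounded most surface genes.

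C1qc and C1qb gave the smallest p among members in the libraries labelled Tfap2b+/-. C1q is assembled from equal numbers of A, B and C chains, and the 3 genes lie side by side on the minus strand of chromosome 4 (GRCm38), with C1qb at chr4:136880129-136886187, C1qc at chr4:136889804-136893065 and C1qa at chr4:136895917-136898803. C1qc measured 30.9, 29.3 and 28.4 CPM in wild type, then 27.3, 30.9 and 26.6 CPM in Tfap2a+/- and 18.1, 23.2 and 24.6 CPM in the libraries labelled Tfap2b+/-. C1qb measured 32.3, 32.5 and 29.3 CPM, then 31.1, 36.3 and 25.7 CPM, then 21.9, 26.6 and 25.4 CPM in the same order. C1qa measured 31.5, 32.6 and 27.7 CPM, then 29.9, 36.0 and 26.4 CPM, then 19.2, 28.7 and 27.3 CPM. For C1qb and C1qc all 3 libraries labelled Tfap2b+/- lay below all wild-type libraries, while for C1qa the groups overlapped. The log2 folds were -0.43 (standard error 0.12, unadjusted p = 0.0067, adjusted p = 0.37) for C1qc, -0.35 (0.13, 0.027, 0.45) for C1qb and -0.29 (0.17, 0.12, 0.55) for C1qa by edgeR. In Tfap2a+/- the same chains had log2 folds of -0.06, -0.01 and 0.01. Without library 1 labelled Tfap2b+/-, the folds of C1qc, C1qb and C1qa were -0.30, -0.26 and -0.12.

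Within a library the chains stayed close to one another. Per kilobase, C1qb stood at 0.884 to 1.09 times C1qa and C1qc at 0.697 to 0.887 times C1qa. With the length of all annotated exons in place of the principal transcript, C1qc over C1qa averaged 0.499, so the distance between those chains depends on the gene model. The summed C1q level was 85.4 to 94.7 CPM in wild type, 78.7 to 103 CPM in Tfap2a+/- and 59.3 to 78.5 CPM in those labelled Tfap2b+/-. Each sum labelled Tfap2b+/- was below the lowest of the other 6, narrowly so for library 2. Itgam, which encodes CD11b, measured 6.15, 5.68 and 6.06 CPM in wild type, then 6.50, 10.6 and 6.27 CPM in Tfap2a+/- and 5.58, 5.86 and 5.05 CPM in the libraries labelled Tfap2b+/-. Its 3 Tfap2a+/- libraries were above every wild-type library, 2 of them by little. The log2 fold of 0.38 (standard error 0.20, unadjusted p = 0.095, adjusted p = 1.0 by edgeR) became 0.10 without Tfap2a+/- library 2.

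**Figure D4:**
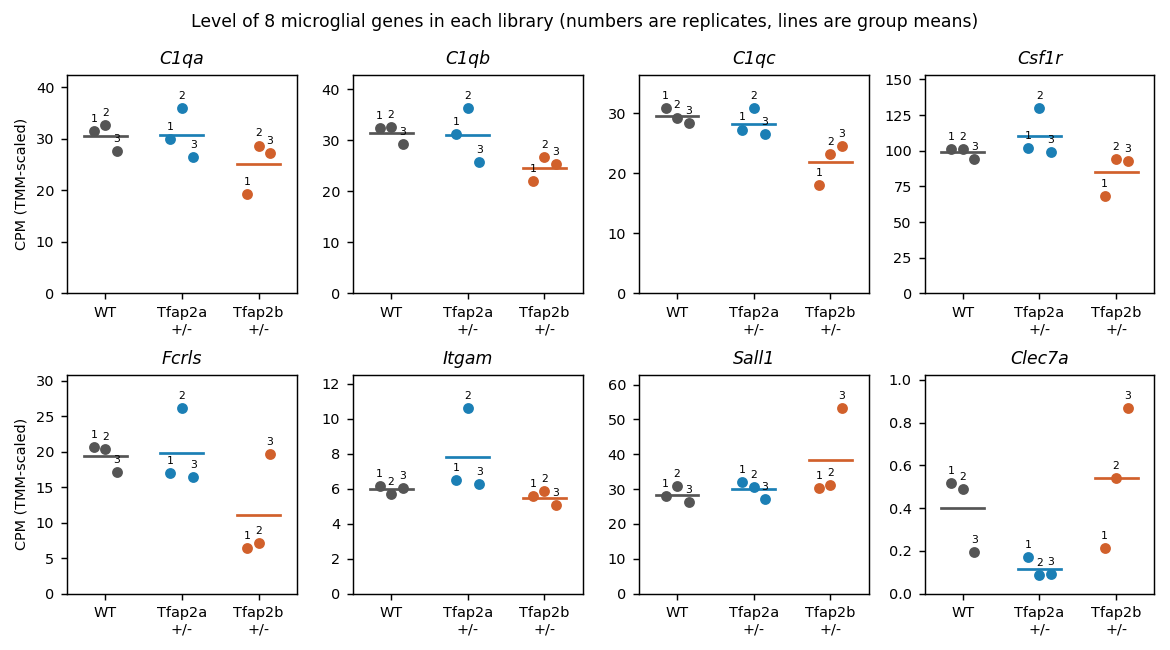
TMM-scaled CPM of C1qa, C1qb, C1qc, Csf1r, Fcrls, Itgam, Sall1 and Clec7a (y axis from 0, one panel per gene) in the 3 libraries of each group (x axis; points numbered by replicate, horizontal lines are group means). C1qb and C1qc lie lower in all 3 libraries labelled Tfap2b+/- than in wild type, Fcrls is low in libraries 1 and 2 of that group, and single libraries stand out for Itgam and Sall1.

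The bases just upstream of the C1q genes are shown because 2 of the chains had the smallest p among members. Those of Mertk are shown as an example of the recognition sequence of the AP-2 factors that the mutants concern. Laptm5 was the other of the 2 members that hold it, and its window is not shown. Promoter windows of 250 bases from RefSeq (GRCm38.p6) matched 26 of the 34 members. Windows were searched on both strands for GAGGAA, the core bound by PU.1, for its longer form GAGGAAGT, which contains the core, for the composite element of PU.1 and IRF factors, and for GCCNNNGGC, the palindrome bound by AP-2. Capitals mark the match in each sequence, which is written 5′ to 3′ on the gene's own strand and leaves out bases annotated as exon. In C1qb (minus strand, chr4:136886201-136886450, 250 bases) the capitals mark the PU.1 core, in C1qc (minus strand, chr4:136893066-136893164, 99 bases) the longer form on the opposite strand, and in Mertk (plus strand, chr2:128698665-128698914, 250 bases) the AP-2 palindrome.
C1qb: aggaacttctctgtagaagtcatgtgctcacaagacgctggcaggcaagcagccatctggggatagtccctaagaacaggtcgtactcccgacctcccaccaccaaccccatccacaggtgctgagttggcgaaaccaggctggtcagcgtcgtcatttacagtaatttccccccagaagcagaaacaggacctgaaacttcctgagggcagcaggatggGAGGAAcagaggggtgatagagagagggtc
C1qc: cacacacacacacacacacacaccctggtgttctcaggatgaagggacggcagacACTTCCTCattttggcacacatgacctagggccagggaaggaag
Mertk: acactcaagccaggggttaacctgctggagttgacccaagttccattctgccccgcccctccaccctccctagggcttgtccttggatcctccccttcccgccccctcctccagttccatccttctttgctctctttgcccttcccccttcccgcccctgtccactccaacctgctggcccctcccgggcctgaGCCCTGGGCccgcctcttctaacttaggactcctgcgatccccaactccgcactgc
The PU.1 core was present in 13 of 26 members (50.0%) and in 25.9% of 27025 genes with a window of that length. The 13 were P2ry13, Fcrls, Aif1, C1qb, C1qc, Itgam, Trem2, Cd33, Ctss, Cst3, Laptm5, Cd68 and Clec7a. The longer form was in C1qc alone of the members (3.85%, against 2.79% of all) and the composite element in Clec7a alone (3.85%, against 0.692%). The AP-2 palindrome was in Laptm5 and Mertk, 7.69% of members against 15.4% of all genes. A match is a run of letters and not a measured binding site.

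Among genes of the TREM2 receptor complex and its partners, no log2 fold against wild type was beyond 0.18 in size. Trem2, the lipid-sensing receptor, measured 7.37, 7.72 and 6.26 CPM in wild type, then 7.57, 9.27 and 7.23 CPM in Tfap2a+/- and 5.68, 6.57 and 6.64 CPM in the libraries labelled Tfap2b+/-. Tyrobp, its signalling adaptor DAP12, measured 6.39, 7.38 and 6.91 CPM in wild type, then 7.12, 8.69 and 5.94 CPM in Tfap2a+/- and 5.68, 6.84 and 7.62 CPM in the libraries labelled Tfap2b+/-. Both genes overlapped wild type in each mutant. The log2 folds of Trem2 were 0.17 (standard error 0.15) and -0.18 (0.15), and those of Tyrobp 0.07 (0.17) and -0.04 (0.17). Fcer1g, another adaptor with an activation motif, and Cd33, an inhibitory receptor, had folds between -0.07 and 0.15.

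Among the lysosomal genes all 6 folds lay below 0 in the libraries labelled Tfap2b+/- (median -0.21), where 50.3% of all genes did. In Tfap2a+/- 4 of 6 did (median -0.07), beside 51.8% of all genes. Over the alternatives, the folds of Lgmn and Laptm5 in the libraries labelled Tfap2b+/- ran from -0.12 to 0.11 and from -0.24 to 0.06. Ctsd, the aspartic protease cathepsin D, measured 112, 135 and 106 CPM in wild type, then 108, 112 and 96.7 CPM in Tfap2a+/- and 102, 102 and 90.8 CPM in those labelled Tfap2b+/-. The last 3 values lay below all of wild type, whose library 2 was the highest of 9. Its log2 fold there was -0.26 (standard error 0.11, unadjusted p = 0.039, adjusted p = 0.46 by edgeR), and -0.16 (0.11) in Tfap2a+/-. Without wild-type library 2 the folds were -0.14 and -0.04. Cd68, a lysosomal glycoprotein used to mark phagocytic activity, measured 5.07, 7.94 and 5.75 CPM in wild type, then 8.11, 6.24 and 6.13 CPM in Tfap2a+/- and 3.67, 4.28 and 5.47 CPM in the libraries labelled Tfap2b+/-. Libraries 1 and 2 of that group were lowest and library 3 overlapped wild type. The log2 fold was -0.49 (0.22, unadjusted p = 0.059, adjusted p = 0.49 by edgeR), and -0.27 without wild-type library 2. Cst3 measured 513, 524 and 526 CPM in wild type, then 511, 572 and 412 CPM in Tfap2a+/- and 468, 509 and 429 CPM in those labelled Tfap2b+/-. Wild type was the tightest, with an SD of 7.12 CPM against 80.9 and 39.6 CPM in the mutant groups, and the log2 folds were -0.07 (0.12) and -0.15 (0.12). Lgmn, the asparaginyl protease legumain, measured 111, 109 and 99.5 CPM in wild type, then 101, 106 and 93.8 CPM in Tfap2a+/- and 122, 108 and 86.3 CPM in the libraries labelled Tfap2b+/-. It was the 1 member highest of 9 in library 1 labelled Tfap2b+/-, where most members were lowest, and its log2 folds were -0.09 and -0.01.

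The phagocytic receptors are not restricted to microglia, since astrocytes also carry MERTK. Mertk, a receptor for dying cells, measured 46.2, 38.4 and 58.7 CPM in wild type, then 48.9, 54.2 and 59.9 CPM in Tfap2a+/- and 31.2, 43.1 and 43.0 CPM in the libraries labelled Tfap2b+/-. Each mutant overlapped wild type, but the mutants did not overlap each other, with a log2 fold of 0.47 between them (standard error 0.18, unadjusted p = 0.026, adjusted p = 0.39 by edgeR). Itgb5, the beta chain of an integrin that aids uptake, measured 43.5, 44.9 and 40.8 CPM in wild type, then 42.2, 45.5 and 38.3 CPM in Tfap2a+/- and 34.2, 39.4 and 38.6 CPM in those labelled Tfap2b+/-. The last 3 lay below wild type. Its log2 fold was -0.20 (0.09, unadjusted p = 0.053, adjusted p = 0.48 by edgeR), and its highest value over its lowest in 9 libraries, 1.33, was the smallest ratio among members with a count in every library.

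The genes linked to activation were low or uneven. Lpl, lipoprotein lipase, which other brain cells also make, measured 13.9, 33.6 and 23.9 CPM in wild type, then 29.2, 52.3 and 26.6 CPM in Tfap2a+/- and 9.35, 33.9 and 26.9 CPM in the libraries labelled Tfap2b+/-. It varied 5.59-fold over the 9 libraries, again between Tfap2a+/- library 2 and library 1 labelled Tfap2b+/-, with log2 folds of 0.60 (standard error 0.48) and -0.03 (0.48). The first was 0.23 without Tfap2a+/- library 2, 0.33 with wild-type library 1 left out and 0.93 with wild-type library 2 left out. The second was -0.40 without library 2 of its group and 0.36 without library 1. Over all 17 alternatives the second lay between -0.40 and 0.69. Clec7a, which encodes the glucan receptor Dectin-1, measured 0.517, 0.489 and 0.193 CPM in wild type, then 0.171, 0.0891 and 0.0921 CPM in Tfap2a+/- and 0.212, 0.539 and 0.867 CPM in those labelled Tfap2b+/-. The 3 Tfap2a+/- libraries were the lowest of 9, on 5, 2 and 2 reads, against 11, 13 and 5 reads in wild type. The log2 fold was -1.68 (95% interval -3.20 to -0.15, unadjusted p = 0.035, adjusted p = 1.0 by edgeR) and rests on those few reads. Clec7a passed the low-count filter through libraries of the other groups and did not pass in a fit of Tfap2a+/- with only wild type or only the libraries labelled Tfap2b+/-, so that its place among tested genes depends on where it is high. Cst7, which encodes cystatin F, had 0 to 5 reads in a library, and 3 reads amount to 0.101 to 0.141 CPM, so no difference was detectable at this depth.

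Read over all 33 tested members, the median log2 fold in Tfap2a+/- was 0.08, beside -0.01 over all genes. Of the members 22 lay above 0, where 48.2% of all genes did. Of the 33, 4 had groups that did not overlap, Irf8 and Itgam higher and Ly86 and Clec7a (tested only through the third group) lower, where 9.17% of all genes did. The median became -0.06 without Tfap2a+/- library 2, 0.16 without Tfap2a+/- library 3 and 0.02 without wild-type library 3. In the libraries labelled Tfap2b+/- the median was -0.16, beside 0.00 over all genes, and 29 of 33 members lay below 0, where 50.3% of all genes did. The 7 members whose groups did not overlap were all lower, namely Tmem119, Selplg, C1qb, C1qc, Ctsd, Cst3 and Itgb5, where 7.63% of all genes did so and 16.5% in either direction. Without library 1 labelled Tfap2b+/- the median was -0.07 and 21 of 33 lay below 0. Without that library, wild-type library 2 and Tfap2a+/- library 1, a set taken over from earlier results of these data, it was -0.05 and 19 of 33 lay below 0. The folds of C1qa, Cd68, Ctsd and Itgb5 were then -0.07, -0.15, -0.17 and -0.10. The median was -0.28 without library 2 labelled Tfap2b+/-. Leaving out library 1 or library 2 thus moved the median by more than 1.5 times, toward 0 and away from it.

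**Figure D5:**
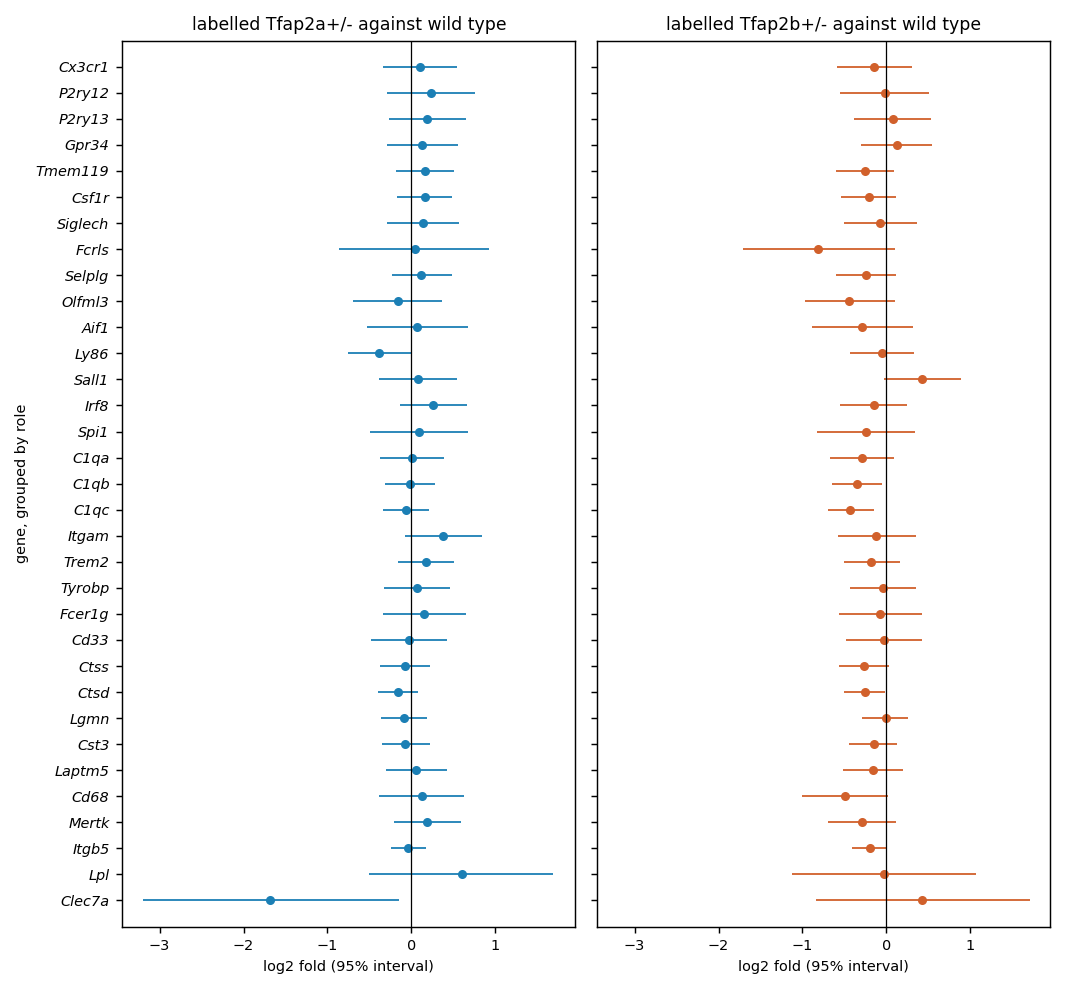
Log2 fold of each tested gene against wild type (x axis, point with 95% interval from edgeR's quasi-likelihood fit; y axis, 33 genes grouped by role) for Tfap2a+/- (left) and the libraries labelled Tfap2b+/- (right), with 3 libraries per group. In the right panel 29 of 33 points lie below 0 and in the left panel 22 of 33 lie above it, and the intervals of most genes include 0.

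Between the mutants, Tfap2a+/- lay above the libraries labelled Tfap2b+/- for 28 of 33 members, where 48.3% of all genes did, with a median log2 fold of 0.26. Groups did not overlap for 10 members (17.2% of all genes). The 11 members at an unadjusted p under 0.05 were Tmem119, Csf1r, Selplg, Irf8, C1qb, C1qc, Itgam, Trem2, Cd68 and Mertk, higher in Tfap2a+/- as were 4.98% of all genes at that p, and Clec7a, lower at -2.11 (0.65, adjusted p = 0.37 by edgeR) and not tested when the mutants were fitted alone. The 2 libraries at the ends of the range are in these 2 groups. Without Tfap2a+/- library 2 the count fell to 2 of 33 and the median to 0.17, and without library 1 labelled Tfap2b+/- to 4 of 33 and 0.10. It was also 4, of 32, when wild type was left out of the fit.

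The other genes of the complement cascade lay on both sides of 0. Of 20 genes listed, 17 were tested and 0 passed in either mutant. In the libraries labelled Tfap2b+/-, 10 folds lay above 0 and 7 below, with a median of 0.01. Cd46, a membrane cofactor in the inactivation of C3b, stood at 8.80 ± 0.839 CPM (SD, n = 3) against 4.62 ± 1.13 in wild type, with no overlap and a log2 fold of 0.93 (standard error 0.21, adjusted p = 0.29 by edgeR). Serping1, the inhibitor of C1 proteases, stood at 11.8 ± 3.99 CPM against 6.19 ± 0.466, also with no overlap and a log2 fold of 0.93 (0.26, adjusted p = 0.37 by edgeR). Clu, a fluid-phase inhibitor made mostly by astrocytes, was at 517 ± 60.7 CPM against 647 ± 76.5, likewise with no overlap and a log2 fold of -0.32 (0.12, adjusted p = 0.45 by edgeR). In Tfap2a+/- the median was 0.04.

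For ligands, signalling partners and other regulators of microglia, 20 of 20 genes were tested and 0 passed in either mutant. In the libraries labelled Tfap2b+/- 16 of 20 lay below 0, where 50.3% of all genes did, with a median of -0.12. The list's median deviations were 0.06, 0.09 and 0.00 in wild type, and -0.34, 0.00 and 0.10 in libraries 1, 2 and 3 labelled Tfap2b+/-. Library 1 was thus the only low one of that group. Smad3, which carries TGF-beta signals, had a log2 fold of -0.61 (standard error 0.25) and the neuronal ligand of CX3CR1, Cx3cl1, -0.50 (0.21), with adjusted p of 0.46 and 0.47 by edgeR. In Tfap2a+/- the CSF1 receptor ligand Csf1 (-0.29, 0.11) and Bin1, an endocytic adaptor (-0.23, 0.09), had the smallest p, and the adjusted p of both was 1.0 by edgeR.

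Of the 25 further microglial genes, 0 passed in either mutant and 16 lay below 0 in the libraries labelled Tfap2b+/- (median -0.15), where 50.3% of all genes did. Their median deviations were 0.04, 0.12 and -0.07 in wild type, and -0.40, 0.02 and 0.04 in libraries 1, 2 and 3 labelled Tfap2b+/-. The smallest p there belonged to Ltc4s, leukotriene C4 synthase, at -1.36 (standard error 0.53, adjusted p = 0.45 by edgeR), and Golm1 at -0.76 (0.33, 0.47). Of 28 inflammatory and activation genes, 21 were tested, 0 passed, and the median was 0.02 in the libraries labelled Tfap2b+/- and -0.07 in Tfap2a+/-. H2-Aa, an MHC class II chain, stood at 3.32 ± 1.87 CPM (SD, n = 3) against 1.36 ± 0.441 in wild type (log2 fold 1.28, standard error 0.46, adjusted p = 0.43 by edgeR). Spp1, osteopontin, stood at 18.9 ± 10.3 CPM against 9.24 ± 3.33 (1.03, 0.40, 0.45). The groups of H2-Aa did not overlap, those of Spp1 did, and the SD of each was about as large as the difference in means.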

How the data were processed

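RNA from mouse brain was sequenced as paired 75-base reads. The authors deposited 1 table of gene counts per sample. Per the submitters' processing notes, which name cutadapt 2.4, STAR 2.6.1d, edgeR and build GRCm38.p6, and per the file layout, the counts are STAR gene counts, raw and not normalized, in unstranded, forward and reverse columns. The reverse column was used, since the labels' protocols describe a dUTP kit. Rows naming no gene were left out (reads on no exon of the strand counted were 7.30% to 11.8% of fragments). Identifiers were matched to GENCODE M21 without versions, for 54409 of 54446. The members and lists were chosen with earlier results of these data known.

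Counts were fitted with edgeR 4.0.16 (R 4.3.3, limma 3.58.1) by quasi-likelihood, with TMM scaling and filterByExpr, on all 9 libraries with genotype as the only term. P-values were adjusted by the Benjamini-Hochberg method over 17355 genes and called under 0.05. CPM is TMM-scaled, and the log2 CPM behind deviations used a prior count of 2. Values in every library are given for the 2 highest members per kilobase of each role, the C1q chains, and the 5 members of smallest p in each comparison with wild type. Pathway lists give up to 3 genes of smallest p, of which 1 is not reported here. DESeq2 1.42.0, other filters and scalings, unstranded counts, a replicate block and leaving out libraries were tried as alternatives. On simulated counts for 17355 genes, 60.0% of genes changed 2-fold and 12.2% of those changed 1.5-fold were recovered for Tfap2a+/- against wild type, and 50.0% and 14.6% for the libraries labelled Tfap2b+/-. The counts were drawn for each gene on its own, with 50 genes changed at each fold. They lack the deviations shared by many genes of a library, so the rates need not hold for the measured libraries. With 3 against 3 samples an exact permutation test of a single value cannot go below 0.1, so none is given.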

Additional observations from a re-analysis of the deposited data

How the results depend on the processing

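The number of members called stayed at 0 in all 3 comparisons under all 17 alternatives, and the smallest adjusted p of a member over them was 0.93 in Tfap2a+/- against wild type, 0.12 in the libraries labelled Tfap2b+/- against wild type and 0.054 between the mutants. Over all genes, edgeR called 0 in each, and DESeq2 called 30, 175 and 228. Without a low-count filter 2 genes were called in Tfap2a+/- against wild type and 7 between the mutants. With library 1 of both mutant groups and library 2 of wild type left out at once, 2 were called in the libraries labelled Tfap2b+/- and 1 between the mutants. Leaving out 1 library at a time gave 0 to 3 genes, 0 to 4 genes and 0 to 31 genes, the last of these without library 3 labelled Tfap2b+/-. The cause of these changes was not tested. Folds of single members changed sign in 27 of 559, 33 of 560 and 20 of 559 refitted values, none of them called. Same-numbered deviations from the group mean correlated at -0.352, 0.0219 and 0.153 between wild type and Tfap2a+/-. They correlated at -0.18, 0.0518 and -0.151 between wild type and the libraries labelled Tfap2b+/-, and at 0.337, -0.0255 and 0.143 between the mutants. Differently numbered ones correlated at -0.394 to 0.37. The replicate numbers thus showed no pairing by this measure. With 3 libraries a group it cannot exclude that same-numbered samples were handled together. With the replicate number as a block, 0 genes were called in each comparison, and the medians over members were 0.08, -0.17 and 0.26. The ratio of C1qc to C1qa per kilobase averaged 0.499 with the length of all annotated exons, a setting chosen after seeing the data. Depth limits Cst7 and Clec7a. The simulated counts lacked deviations shared by many genes of a library. In them, against wild type, 12.2% to 14.6% of 1.5-fold and 50.0% to 60.0% of 2-fold changes were recovered at this number of libraries.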

Other observations

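The pattern of Fcrls, low in libraries 1 and 2 labelled Tfap2b+/- and not in library 3, was followed into other genes after its values were seen. Of 17355 genes tested, 7 had both libraries below the lowest of the other 7 by more than 2-fold. Fcrls was the 1 of them above 2 CPM in those 7 libraries, and also the 1 of them on chromosome 3. In the opposite direction, 19 genes had both libraries above the highest of the other 7 by more than 2-fold. Of these 19, 5 lie on chromosome 3, which holds 5.24% of all genes tested. They are spread from Shox2 at chr3:66971727 to Vav3 at chr3:109340653, and whether they bear on Fcrls was not tested. Of the 8 other genes tested within 500 kb of Fcrls, none was among the 7 or the 19, and Etv3, the next gene tested on the far side, read 32.5 and 31.4 CPM in libraries 1 and 2 against 30.0 to 58.9 CPM elsewhere.

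The ribosomal protein gene Rps3a1, which ends 1108056 bases from Fcrls on chromosome 3, read 93.5 and 94.8 CPM in libraries 1 and 2 labelled Tfap2b+/- and 128 to 161 CPM in the other 7. Its copies Rps3a3, on chromosome 13, and Rps3a2, on chromosome 14, read 20.5 and 21.2 CPM and 3.71 and 3.81 CPM in those libraries, against at most 0.715 and 1.41 CPM elsewhere. Reads of near-identical copies can be assigned to one another, so the split between these 3 genes is uncertain. The same libraries were also the highest for Tcf7l2, at 148 and 91.8 CPM against 4.33 to 26.2 CPM, and for Slc17a6, at 324 and 187 CPM against 17.4 to 92.8 CPM, both of which are known for high expression in thalamus. Whether either set of values bears on Fcrls was not tested.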
